A study of Mus musculus with 6 samples.

Results

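The TGF-beta and BMP pathway was examined through 37 listed genes: 10 receptors, 5 SMADs, 10 inhibitors and 12 reported target genes. The genes were taken from a fixed list of symbols, chosen with earlier results of these data known. They were found by identifier among the 53801 genes of the deposited read count table. Of the 37, 33 had enough reads to be tested among 13631 tested genes, and Fstl3, Id3, Spsb1 and Tgfbi had too few. The RNA came from fetal liver cells of mouse embryos at E12.5-13.5, of a strain that carries Cas9 and EGFP under the CAG promoter at the Gt(ROSA)26Sor locus. Cells of both groups carried sgGata1, a guide RNA against the blood transcription factor gene Gata1, and the microRNA miR-125b from a lentivirus, and the labels name them for Gata1s, the short form of GATA1. A further doxycycline-inducible transgene was either Arid3a-FLAG, a tagged form of the DNA-binding protein ARID3A (3 libraries), or LUC (3 libraries, the controls). Both groups received doxycycline at 1 μg/mL for 48 h.

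TGF-beta, activin and BMP ligands bind a pair of type II receptors, which phosphorylate a pair of type I receptors. The type I receptors in turn phosphorylate receptor-regulated SMAD proteins (Smad2 and Smad3 for TGF-beta and activin, Smad1 and Smad5 for BMP), which join Smad4 and act on genes in the nucleus. Many of the genes they switch on encode inhibitors that return the pathway to rest, and in the megakaryocyte lineage, whose platelets store TGF-beta in their granules, the ligand is known as a restraint on growth.

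Library totals ran from 16605860 to 18249053 counts with LUC and from 15728150 to 17011606 with Arid3a-FLAG. The construct entry for the tagged Arid3a was counted 3348, 3044 and 2758 times with Arid3a-FLAG and not at all with LUC. The endogenous Arid3a gene had a log2 fold change of -0.01 (95% interval -0.42 to 0.40) and Gata1, whose counts do not tell edited from unedited transcripts, of 0.19 (-0.03 to 0.41). LUC library 2 stood apart from the other libraries on the second principal component of log2 scaled counts, which took 24.0% of the variance. The first component, with 45.3%, separated the groups. Whether the libraries of a group are separate animals or cultures is not in the labels, and the p-values below therefore reflect only how far these samples spread, a spread that may be technical.

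Smad3, a SMAD of the TGF-beta and activin branch, and the reported targets Tgm2, Ppp1r15a and Rhob rose with Arid3a-FLAG, while Pmepa1, a feedback inhibitor, fell. The other 28 tested members did not pass the threshold, an adjusted p of 0.05 over all tested genes. Among all tested genes 7.29% passed, 3.43% as higher and 3.87% as lower, against 4 higher (12.1%) and 1 lower (3.03%) of 33 members. The members were chosen with earlier results known, so their shares are a description, and the list itself was not tested. In bulk samples such as these, fewer cells of a type and less RNA per cell cannot be told apart. The median log2 fold change of the tested members was 0.01 and that of all tested genes -0.03, and 18 members lay above 0 and 15 below. All 3 libraries of one group lay above all 3 of the other for 7 members as higher with Arid3a-FLAG and for 4 as lower, where this held for 16.6% and 16.5% of all tested genes. For 20 of the 33 members the 95% interval excluded a change of 1.5-fold in either direction (60.6%, against 56.1% of all tested genes). Without Arid3a-FLAG library 1 no member passed, and without LUC library 1 Pmepa1 alone did.

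**Figure D1:**
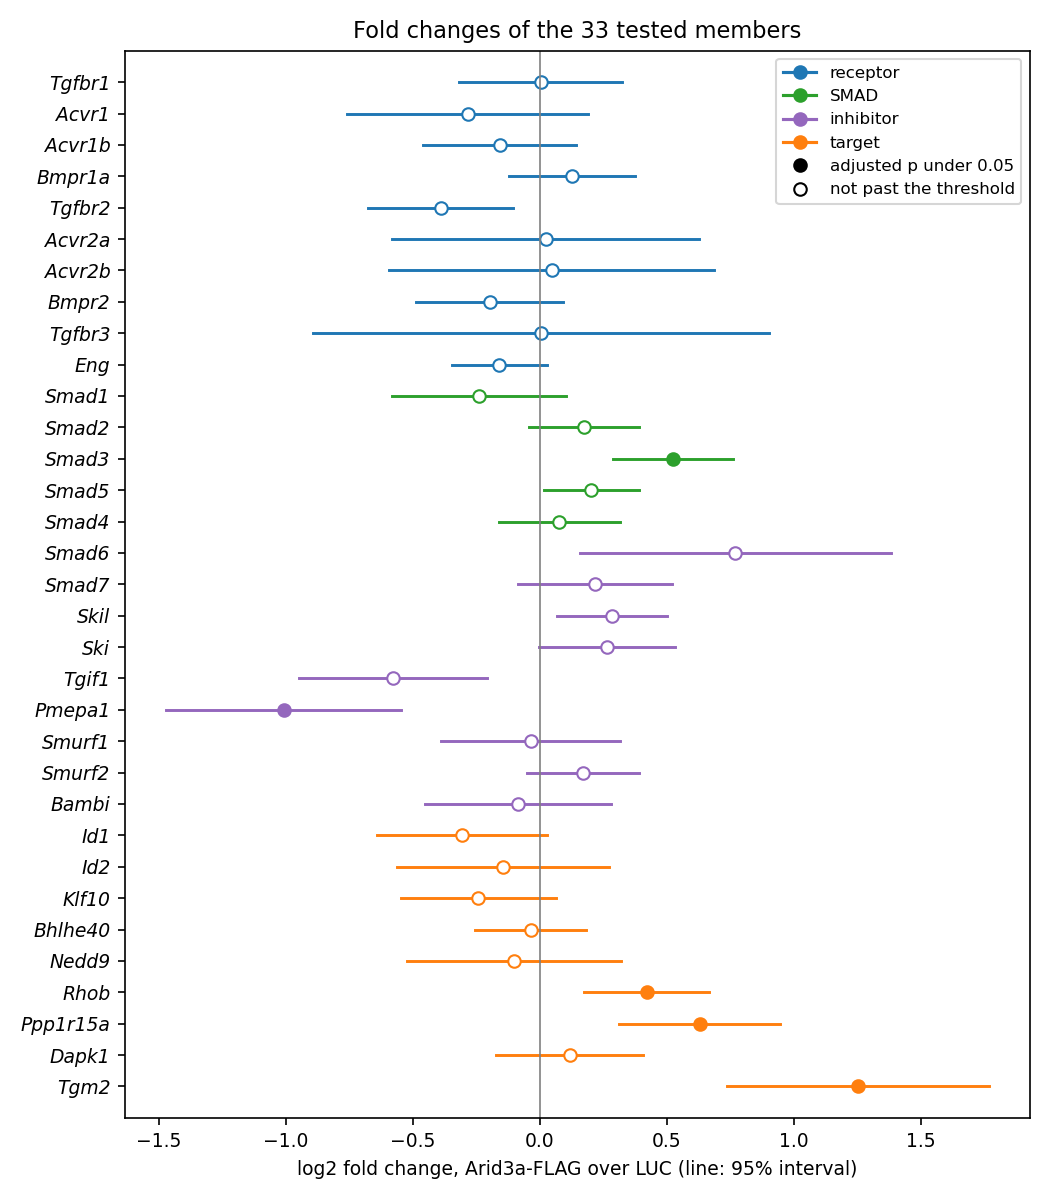
Log2 fold change of each tested member (Arid3a-FLAG over LUC, horizontal axis) with its 95% interval, coloured by role; filled circles mark an adjusted p under 0.05. The 5 filled circles are Smad3, Rhob, Ppp1r15a and Tgm2 to the right of 0 and Pmepa1 to the left, at -1.01.

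Summed markers of several cell types differed between the groups. The summed level of the 10 erythroid markers was 207 to 257 CPM (counts scaled to the library total, with TMM factors) with LUC and 314 to 400 with Arid3a-FLAG, with Slc4a1 at 0. Mast cell and basophil markers (11 genes) summed to 3017 to 3574 CPM in the controls and 2151 to 2924 CPM under Arid3a-FLAG. Of the 10 tested, 3 fell (30%, against 3.87% of all tested genes) and 7 did not pass. Mcpt8 (log2 fold change -2.43), Ms4a2 (-1.54) and Fcer1a (-1.24) fell. Gata2, with the highest level of this list in every library, was at 0.10 (adjusted p = 0.668). The summed level of the 12 megakaryocyte markers overlapped between the groups, at 6355 to 7797 CPM and 6843 to 7313 CPM. Of the 12, 4 rose (33.3%, against 3.43% of all tested genes) and 8 did not pass. Those that rose were Itgb3 (log2 fold change 0.97), Gp1bb (0.82), Gp9 (0.69) and Gp5 (0.63). In all, 8 of the 12 (66.7%) were higher in every Arid3a-FLAG library than in any LUC library, against 16.6% of all tested genes. In the other direction there was 1 (8.33%, against 16.5%), Pf4, which had the highest level of the list in every library (2968 to 4979 CPM). These megakaryocyte sums were the highest of the 9 marker lists in every library. Of the lower lists, neutrophil markers spanned 25.1 to 29.3 CPM with LUC against 12.2 to 24.8 CPM with Arid3a-FLAG, and lymphoid markers 31.1 to 42.7 CPM against 7.07 to 8.53 CPM, with Rag1 at 0. Both lists were thus lower in every Arid3a-FLAG library than in any LUC library. Monocyte and macrophage markers were at 16.0 to 19.3 CPM and 24.4 to 32.3 CPM, with Ly86, Vcam1 and Cd5l at 0. Their order was thus opposite to that of the neutrophil and lymphoid lists. Endothelial markers were at 244 to 284 CPM and 222 to 243 CPM, with the defining genes Cdh5 and Clec14a at 0. Of the 5 tested, 1 rose (20%, against 3.43% of all tested genes), 1 fell (20%, against 3.87%) and 3 did not pass. These were Kdr, which rose (log2 fold change 2.32) from at most 0.462 CPM with LUC, and Egfl7, which fell (-0.41). Stromal markers were at 8.17 to 11.8 CPM and 4.18 to 6.46 CPM, with Col3a1, Pdgfra, Dcn, Lum and Cxcl12 at 0. Markers of hepatocytes, the main cells of adult liver, overlapped at 20.1 to 27.2 CPM and 16.2 to 20.2 CPM, with Ttr, Serpina1a, Fgb and Fga at 0. The part of these shifts in the members' values was not tested.

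RefSeq promoter sequences (GRCm38.p6) were found for 26 of the 37 members. For Tgm2 and Pmepa1, which passed the threshold, none was found. The sequences of Smad3, Rhob and Ppp1r15a, the other members past the threshold, are shown. Each is the stretch of 250 bases before the annotated start, read 5′ to 3′ on the gene's strand, and capitals mark letters that matched a searched motif.
Smad3 promoter, chr9:63757995-63758244, minus strand: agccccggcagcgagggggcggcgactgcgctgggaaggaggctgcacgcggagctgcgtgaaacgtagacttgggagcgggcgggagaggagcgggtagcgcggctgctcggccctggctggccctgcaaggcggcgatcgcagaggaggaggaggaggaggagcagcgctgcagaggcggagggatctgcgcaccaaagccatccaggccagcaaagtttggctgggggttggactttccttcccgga
Rhob promoter, chr12:8500010-8500259, minus strand: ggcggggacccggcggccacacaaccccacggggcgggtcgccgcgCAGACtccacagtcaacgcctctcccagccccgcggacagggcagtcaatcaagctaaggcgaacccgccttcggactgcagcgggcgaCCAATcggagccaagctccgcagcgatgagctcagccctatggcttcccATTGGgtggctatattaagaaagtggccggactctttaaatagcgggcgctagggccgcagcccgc
Ppp1r15a promoter, chr7:45526269-45526518, minus strand: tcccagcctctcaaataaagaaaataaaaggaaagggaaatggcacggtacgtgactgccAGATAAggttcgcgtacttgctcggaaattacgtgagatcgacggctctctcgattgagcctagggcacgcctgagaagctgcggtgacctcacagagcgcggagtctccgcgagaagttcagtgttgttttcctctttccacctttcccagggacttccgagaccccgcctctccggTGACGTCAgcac
In the Rhob promoter, the letters CAGAC (the short SMAD-binding box) lay 204 to 200 bases before the start, and CCAAT boxes lay 115 to 111 bases (CCAAT) and 66 to 62 bases (ATTGG, the other strand) before it. The Ppp1r15a promoter held a motif of the GATA factors, AGATAA, at 190 to 185 bases before the start and TGACGTCA, the cyclic AMP response element, 12 to 5 bases before it. In the Smad3 stretch none of the searched letters were found. Searches covered both strands of the 250 bases before the start. CAGAC was held by 42.2% of all promoters and by 48.5% of the 33 promoter entries of members, so the match in Rhob is a common one. GGCGCC, a GC-rich SMAD box, was held by 9.59% of all promoters and 27.3% of the members' entries, whose median GC content was 66.0% against 52.4% for all. ATTAAA or ATCAAA, letters of the AT-rich kind that ARID3A binds, were in 20.9% of all and 6.06% of the members' entries. The GATA letters AGATAA or TGATAA or AGATAG or TGATAG were in 26.5% and 15.2%. The SMAD palindrome GTCTAGAC was in 0.167% of all promoters and in no entry of a member. CCAAT (33.8% and 30.3%) and TGACGTCA (1.55% and 3.03%) were added to the search after the printed letters had been read. These matches describe letters in a window and say nothing of binding.

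No receptor passed the threshold, and at an unadjusted p under 0.05 there was 1 of 10, Tgfbr2, where 25.6% of all tested genes had such a p. DESeq2 and limma-voom also called 0 of the 10. The median log2 fold change of the 10 receptors was -0.08. Tgfbr2, the type II receptor that binds TGF-beta itself, had 71.4, 64.1 and 85.0 CPM in the LUC libraries and 53.1, 50.5 and 64.7 CPM in the Arid3a-FLAG ones. The highest Arid3a-FLAG library lay within the LUC range. For Tgfbr2 the log2 fold change was -0.39 (SE 0.13, 95% interval -0.68 to -0.11, adjusted p = 0.0923). It passed as lower without LUC library 2 (adjusted p = 0.0135) and with no filter on low counts (0.0196).

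Tgfbr1, the type I partner of Tgfbr2, had 30.3, 34.6 and 38.0 CPM in the LUC libraries and 28.0, 33.9 and 41.1 CPM in the Arid3a-FLAG ones. Its groups overlapped throughout, and the log2 fold change was 0.00 (95% interval -0.32 to 0.32). Eng, which encodes the co-receptor endoglin, had 97.9, 94.3 and 102 CPM in the LUC libraries and 86.5, 84.5 and 92.3 CPM in the Arid3a-FLAG ones. It was the 1 receptor whose groups did not overlap, at -0.16 on the log2 scale with an SE of 0.08 (adjusted p = 0.259). Eng shares 61 exonic bases with Fpgs on the opposite strand, and the strand setting of the counting is not given, so reads there cannot be told apart. The co-receptor gene Tgfbr3 (betaglycan) had 9 to 22 counts in a library and an interval of -0.89 to 0.90, the widest of the receptors.

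The BMP and activin receptors showed no call either. Bmpr2, the BMP type II receptor, had 35.0, 26.1 and 36.2 CPM in the LUC libraries and 28.6, 27.0 and 29.4 CPM in the Arid3a-FLAG ones. LUC library 2 was lower than all 3 Arid3a-FLAG libraries, while the other LUC libraries were above them. For Acvr1b, an activin type I receptor, LUC library 2 was likewise below all 3 Arid3a-FLAG libraries and the other LUC libraries above them. Its levels were 35.4, 26.1 and 37.5 CPM against 28.2, 29.8 and 30.9 CPM. The log2 fold changes were -0.20 for Bmpr2 (adjusted p = 0.372) and -0.16 for Acvr1b (0.495). Without LUC library 2 both passed as lower, Bmpr2 by -0.32 (adjusted p = 0.0317) and Acvr1b by -0.29 (0.0490). Bmpr1a, a BMP type I receptor, had 19.7, 19.7 and 21.0 CPM in the LUC libraries and 23.9, 20.3 and 21.8 CPM in the Arid3a-FLAG ones, a log2 fold change of 0.13 (95% interval -0.12 to 0.38). Acvr1, another type I receptor of the BMP branch, had 4.31 to 4.56 CPM with LUC, and with Arid3a-FLAG 3.10, 3.31 and 4.58 CPM. Library 3 of the latter was thus above every LUC library. The activin type II receptors Acvr2a and Acvr2b had 20 to 61 counts in a library, and their intervals reached from -0.58 to 0.63 and from -0.59 to 0.69. Acvr2a shares 446 exonic bases with Orc4 on the opposite strand.

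Of the 5 SMADs, Smad3 rose (20%, against 3.43% of all tested genes) and the other 4 did not pass. Smad3 (ENSMUSG00000032402, chromosome 9, 63646767 to 63757994, minus strand, GRCm38) had 48.4, 42.5 and 51.6 CPM in the LUC libraries and 64.6, 75.6 and 64.9 CPM in the Arid3a-FLAG ones. Each Arid3a-FLAG library was above each LUC library, and library 2 was the highest. The mean went from 47.5 ± 4.62 to 68.4 ± 6.27 CPM (SD, n = 3), or 0.52 on the log2 scale with an SE of 0.11 (adjusted p = 0.0181). Smad3 did not pass when LUC library 1 was left out (0.0557), nor when Arid3a-FLAG library 1 (0.0684) or 2 (0.110) was, at log2 fold changes of 0.56, 0.56 and 0.45.

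Smad2, the other SMAD of the TGF-beta and activin branch, had 42.1, 50.0 and 44.9 CPM in the LUC libraries and 51.2, 49.6 and 53.7 CPM in the Arid3a-FLAG ones. LUC library 2 lay among the Arid3a-FLAG libraries. The log2 fold change was 0.17 (SE 0.10, adjusted p = 0.290), and without LUC library 2 Smad2 passed as higher (0.26, adjusted p = 0.0476). Smad5, of the BMP branch, had 70.1, 64.3 and 69.8 CPM in the LUC libraries and 78.0, 76.5 and 80.4 CPM in the Arid3a-FLAG ones. Its groups did not overlap, and its log2 fold change of 0.20 (SE 0.09) had an adjusted p of 0.167. Smad1, which acts beside Smad5, had 11.4, 11.9 and 11.8 CPM in the LUC libraries and 8.25, 9.97 and 11.5 CPM in the Arid3a-FLAG ones, a log2 fold change of -0.24 (95% interval -0.58 to 0.10). Smad4, the partner of both branches, had 34.9, 36.8 and 43.3 CPM in the LUC libraries and 40.2, 38.7 and 42.3 CPM in the Arid3a-FLAG ones. All its Arid3a-FLAG values lay inside the LUC range (log2 fold change 0.08, 95% interval -0.16 to 0.32).

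**Figure D2:**
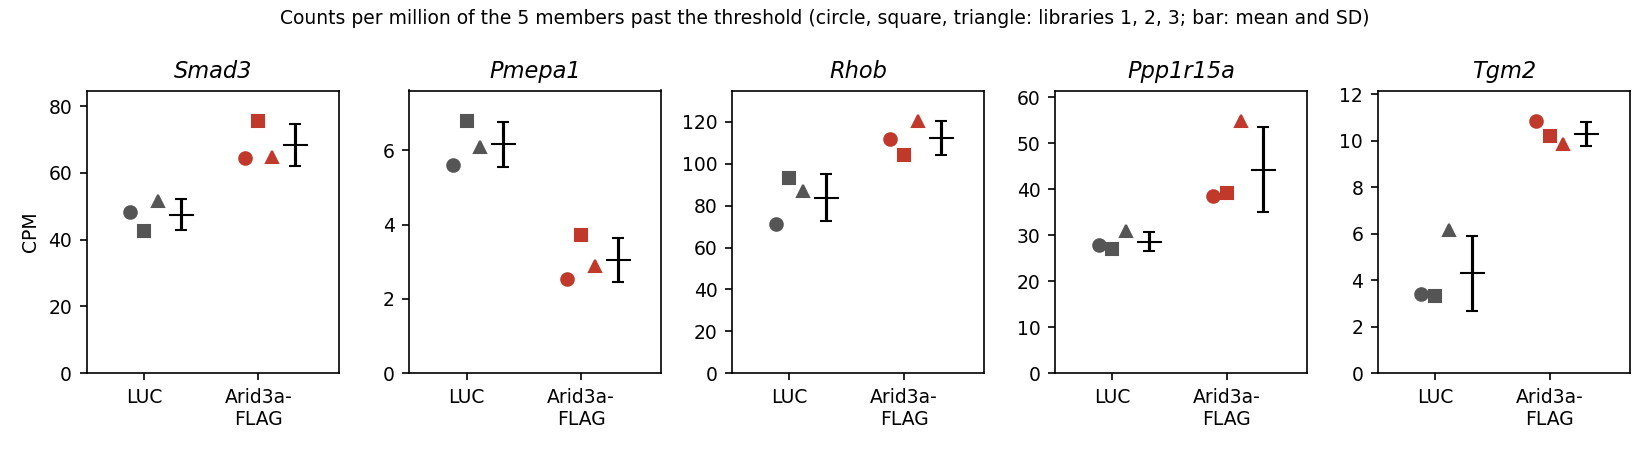
CPM (vertical axis, from 0) of the 5 members past the threshold in each library, LUC in grey and Arid3a-FLAG in red; the bar beside each group is its mean with the SD (n = 3). The groups do not overlap in any of the 5 panels, and Arid3a-FLAG library 3 of Ppp1r15a, at 54.9 CPM, stands above libraries 1 and 2 at 38.6 and 39.2 CPM.

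Among the inhibitors, 9 of 10 were tested, 1 fell (11.1%, against 3.87% of all tested genes) and 8 did not pass. Of the 9, 4 (44.4%) had an unadjusted p under 0.05, against 25.6% of all tested genes. Pmepa1 (ENSMUSG00000038400, chromosome 2, 173224458 to 173276533, minus strand) encodes a membrane protein, induced by TGF-beta, that keeps receptor-regulated SMADs from the receptors. It had 5.60, 6.79 and 6.09 CPM in the LUC libraries and 2.54, 3.71 and 2.88 CPM in the Arid3a-FLAG ones. All Arid3a-FLAG libraries were below all LUC libraries. These levels rest on 97 to 113 counts with LUC and 41 to 64 counts with Arid3a-FLAG. Pmepa1 thus fell to 0.497 of its LUC level, a log2 fold change of -1.01 (adjusted p = 0.0187, SE 0.21). Leaving out Arid3a-FLAG library 1 (adjusted p = 0.100) or 3 (0.0612) ended the call, where the log2 fold changes were -0.89 and -0.97.

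Tgif1, a corepressor that binds SMADs, had 13.6, 10.2 and 12.1 CPM in the LUC libraries and 7.07, 7.77 and 9.22 CPM in the Arid3a-FLAG ones. The groups did not overlap. Its log2 fold change of -0.58 (SE 0.17) had an adjusted p of 0.0635, the smallest among members that did not pass. Tgif1 passed as lower without LUC library 2 (0.0148), in DESeq2 and with no filter on low counts. The related corepressors Skil and Ski, which encode SnoN and SKI, lay on the other side of 0. Skil had 57.6, 57.2 and 64.1 CPM in the LUC libraries and 65.9, 75.3 and 76.9 CPM in the Arid3a-FLAG ones, with no overlap (log2 fold change 0.28, SE 0.10, adjusted p = 0.103). Ski had 104, 99.2 and 135 CPM in the LUC libraries and 127, 138 and 142 CPM in the Arid3a-FLAG ones. LUC library 3 was within the Arid3a-FLAG range, and the log2 fold change was 0.26 (SE 0.12, adjusted p = 0.200). Without LUC library 3 Ski passed as higher, at 0.45 (adjusted p = 0.0295).

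The inhibitory SMADs did not pass. Smad6, which mainly restrains BMP signals, had 1.90, 1.24 and 2.16 CPM in the LUC libraries and 2.54, 3.07 and 3.51 CPM in the Arid3a-FLAG ones, from 19 to 56 counts in a library. The groups did not overlap, but the low counts left an SE of 0.28 on its log2 fold change of 0.77 (adjusted p = 0.117). Smad7, which blocks the receptors of both branches, had 19.4, 18.4 and 23.4 CPM in the LUC libraries and 21.6, 22.2 and 27.3 CPM in the Arid3a-FLAG ones. LUC library 3 lay among the Arid3a-FLAG libraries (log2 fold change 0.22, 95% interval -0.09 to 0.52). Smurf1 and Smurf2, ubiquitin ligases that mark SMADs and receptors for turnover, had log2 fold changes of -0.04 and 0.17. Bambi, a receptor-like protein with no kinase, had one of -0.09 (95% interval -0.45 to 0.28). Fstl3, a secreted trap of activin, had 3, 5 and 14 counts with LUC and 4, 5 and 12 with Arid3a-FLAG and was not tested. It shares 1157 exonic bases with Prss57 on the opposite strand, so even these few reads cannot be placed with certainty.

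Of the 12 targets 9 were tested, 3 rose (33.3%, against 3.43% of all tested genes) and 6 did not pass. Tgm2 (ENSMUSG00000037820, chromosome 2, 158116402 to 158146436, minus strand), the crosslinking enzyme transglutaminase 2, had the highest log2 fold change of the members. It had 3.40, 3.33 and 6.15 CPM in the LUC libraries and 10.9, 10.2 and 9.84 CPM in the Arid3a-FLAG ones. LUC library 3 was above the other LUC libraries and below every Arid3a-FLAG library. The mean went from 4.29 ± 1.60 to 10.3 ± 0.511 CPM (SD, n = 3), or 1.25 on the log2 scale with an SE of 0.23 (adjusted p = 0.0121). Leaving out library 1 of either group ended the call (adjusted p = 0.0511 for LUC and 0.0637 for Arid3a-FLAG). Tgm2 shares 370 exonic bases with Rprd1b on the opposite strand, at a mean of 66.5 CPM in LUC and 75.8 CPM in Arid3a-FLAG libraries (log2 fold change 0.19, adjusted p = 0.201). Reads in the shared stretch cannot be told apart, so the value of Tgm2 is uncertain.

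Ppp1r15a (ENSMUSG00000040435, chromosome 7, 45522916 to 45526268, minus strand) encodes GADD34, a phosphatase subunit that acts on the translation factor eIF2 and, with Smad7, on the TGF-beta type I receptor. It had 27.9, 27.0 and 30.9 CPM in the LUC libraries and 38.6, 39.2 and 54.9 CPM in the Arid3a-FLAG ones. Library 3 of the Arid3a-FLAG group was well above libraries 1 and 2, and all 3 were above LUC. The log2 fold change was 0.63 (SE 0.14, adjusted p = 0.0266), and 0.45 without Arid3a-FLAG library 3 (0.0764). Its promoter is the 1 of the 3 printed above with the letters TGACGTCA. It did not pass without LUC library 1 either (0.0832), nor without library 1 (0.0581) or 2 (0.0518) of the Arid3a-FLAG group. Ppp1r15a shares 12 exonic bases with Tulp2, which had 5 to 26 counts in a library.

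Rhob (ENSMUSG00000054364, chromosome 12, 8497661 to 8500009, minus strand), a small GTPase of the actin cytoskeleton, had 71.4, 93.2 and 87.0 CPM in the LUC libraries and 112, 104 and 121 CPM in the Arid3a-FLAG ones. All Arid3a-FLAG libraries were above all LUC libraries, of which library 1 was the lowest. The log2 fold change was 0.42 (SE 0.11), with an adjusted p of 0.0471, close to the threshold. Rhob passed in 2 of the 6 fits that left out 1 library, those without LUC library 2 or LUC library 3. The adjusted p was 0.100 without LUC library 1, 0.161 without Arid3a-FLAG library 1, 0.118 without library 2 and 0.167 without library 3.

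The other targets did not pass. Id1, an inhibitor of basic helix-loop-helix factors and a reported target of BMP SMADs, had 35.3, 51.0 and 33.3 CPM in the LUC libraries and 32.5, 31.1 and 32.9 CPM in the Arid3a-FLAG ones. All Arid3a-FLAG libraries were below LUC, but by little except against LUC library 2. The log2 fold change was -0.31 (SE 0.15, adjusted p = 0.230), and -0.08 without LUC library 2. Id2, of the same family, had 21.5, 24.2 and 24.4 CPM in the LUC libraries and 19.5, 15.6 and 28.4 CPM in the Arid3a-FLAG ones. Its Arid3a-FLAG libraries lay on both sides of the LUC range. Id3 had 4 to 15 counts in a library and was not tested. Klf10, a zinc-finger factor induced early by TGF-beta, had a log2 fold change of -0.24 (95% interval -0.55 to 0.06). Bhlhe40, a repressor of the basic helix-loop-helix class, had 98.5, 108 and 119 CPM in the LUC libraries and 100.1, 115 and 103 CPM in the Arid3a-FLAG ones, and all its Arid3a-FLAG values lay inside the LUC range. Nedd9, a scaffold of adhesion signalling, and Dapk1, a kinase that promotes cell death, had log2 fold changes of -0.10 and 0.12. Spsb1, an adaptor for ubiquitin ligases, had 3 to 12 counts in a library and was not tested. Tgfbi, a matrix protein named for its induction by TGF-beta, had 2, 0 and 2 counts with LUC and 6, 3 and 11 counts with Arid3a-FLAG and was not tested either. The 0 in LUC library 2 allows a level of up to 3 counts, or 0.196 CPM, by counting error alone.

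**Figure D3:**
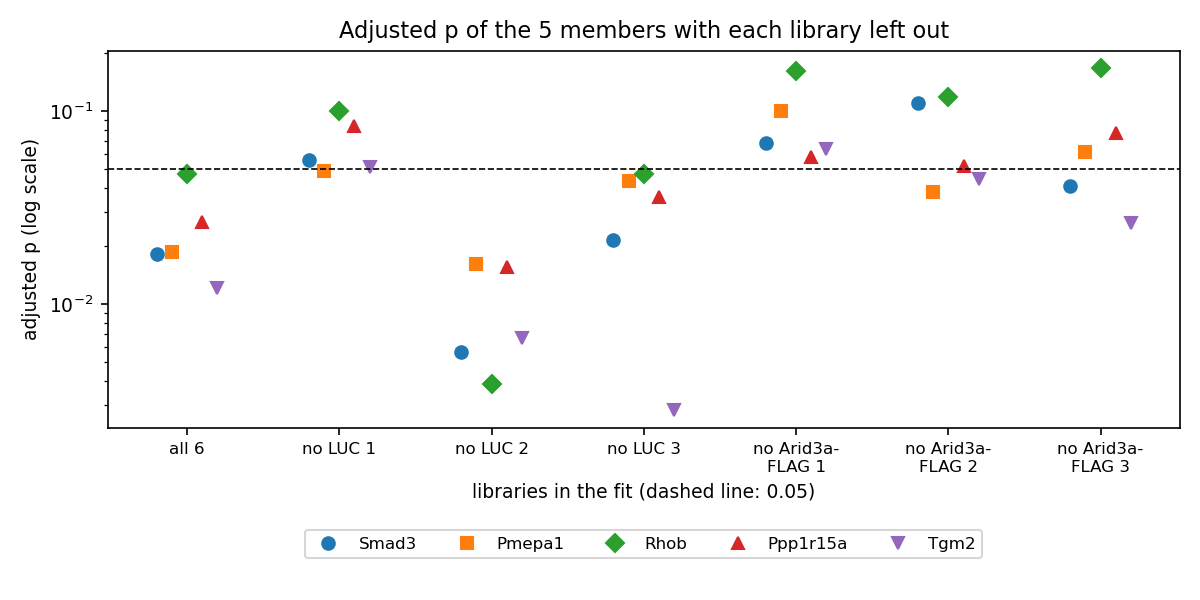
Adjusted p (vertical axis, log scale) of the 5 members past the threshold, in the comparison of all 6 libraries and with each library left out (horizontal axis). Each of the 5 crosses the dashed line at 0.05 in at least 1 of the 6 reduced comparisons, and without Arid3a-FLAG library 1 all 5 lie above it.

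Leaving out a library moved the members' calls in both directions while the 5 calls kept their sign. Pmepa1 and Tgm2 passed in 4 of the 6 reduced comparisons, Smad3 in 3, and Rhob and Ppp1r15a in 2. Without LUC library 2 there were 5 higher and 5 lower members, with Smad2 added to the higher ones and Bmpr2, Tgfbr2, Acvr1b and Tgif1 to the lower ones. In that reduced comparison 1191 genes were higher and 1095 lower of 13981 tested, against 467 and 527 of 13631 with all libraries. The libraries also differed in a way shared by many members, a tally made after the values were seen. LUC library 3 was the highest of its group for 21 of the 33 tested members, against 4076 of 13631 genes, and Arid3a-FLAG library 3 for 22 of 33, against 4585 of 13631. LUC library 2 was the lowest of its group for 18 of the 33, against 5463 of 13631 genes, and Arid3a-FLAG library 1 for 20 of 33, against 4799 of 13631. The median coefficient of variation of the members was 12.7% with LUC and 9.18% with Arid3a-FLAG, and that of all tested genes 13.6% and 7.24%.

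**Figure D4:**
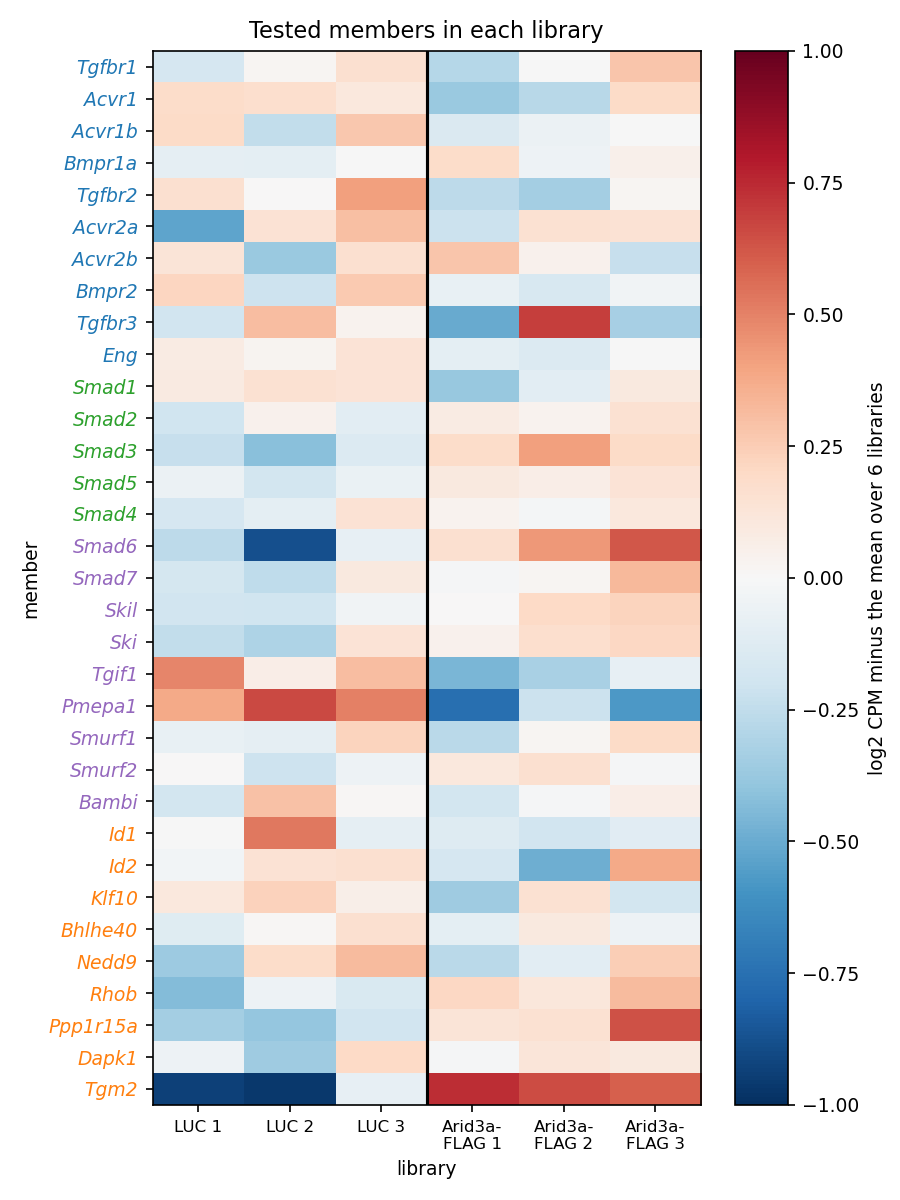
Level of each tested member (names coloured by role: blue receptors, green SMADs, purple inhibitors, orange targets) in each library, as log2 CPM minus the member's mean over the 6 libraries; red is above and blue below that mean. Pmepa1 and Tgm2 show the clearest contrast between the groups, and the receptor block shows libraries of both signs in each group.

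Levels were compared between members only per exon length, as RPKM (reads scaled to exon length and library total). With LUC, Rhob (35.7 ± 4.78 RPKM) and Id1 (34.4 ± 8.38 RPKM) were at the top and did not differ beyond their spread. They were followed by Eng (24.2 ± 0.961 RPKM), Bhlhe40 (23.1 ± 2.22 RPKM) and Ski (20.3 ± 3.54 RPKM), whose ranges overlapped in turn. Below a gap came Smad4 at 10.3 ± 1.19 RPKM, and from there to Smad7 at 4.51 ± 0.589 RPKM each neighbour in the order overlapped the next. A further gap set Smad7 apart from Bmpr1a at 3.17 ± 0.121 RPKM. Among the receptors Eng was highest per length and Tgfbr2 next (8.98 ± 1.30 RPKM), and Tgfbr3 was the lowest at 0.126 ± 0.0221 RPKM. The receptors of the activin type II class, Acvr2a and Acvr2b, were at 0.473 and 0.428 RPKM, far below Tgfbr2.

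**Figure D5:**
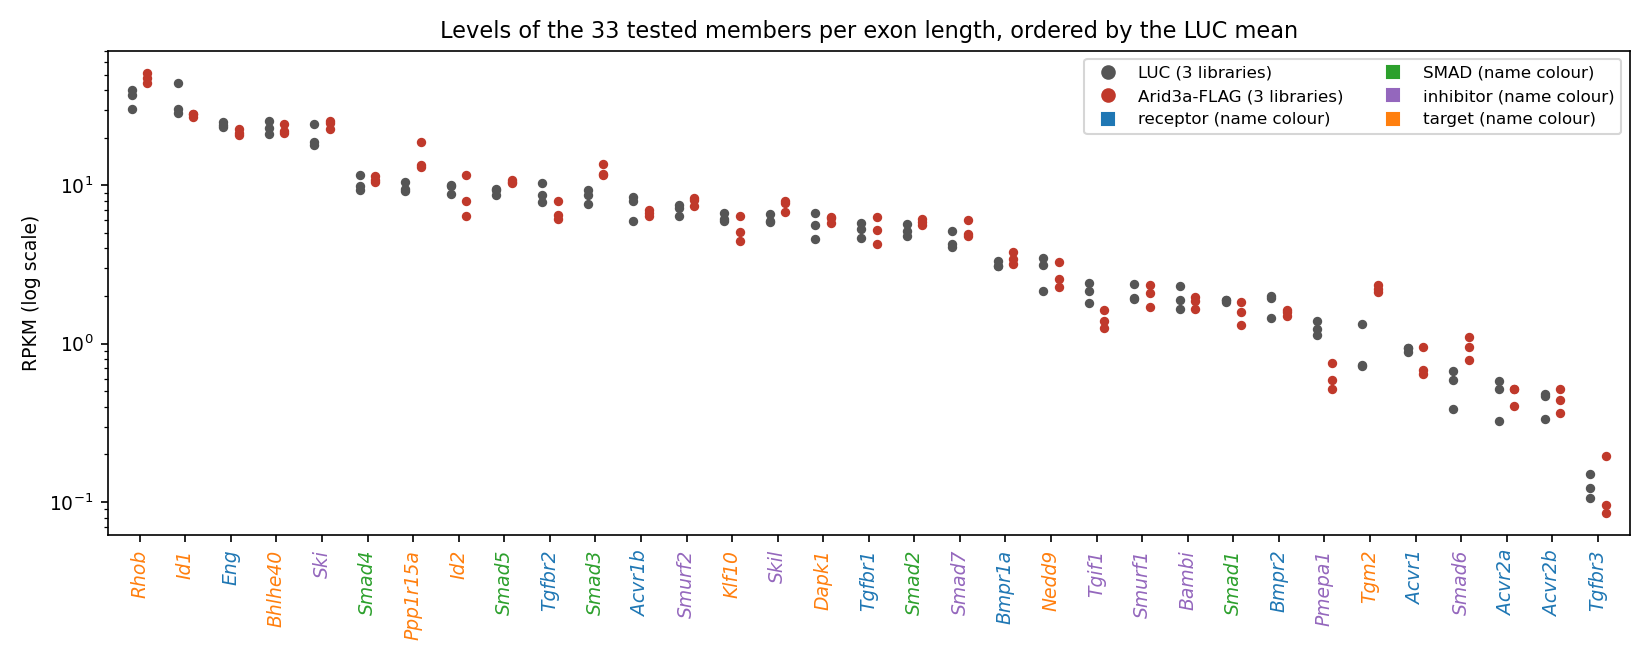
RPKM (vertical axis, log scale) of the 33 tested members in each library, ordered by the LUC mean; grey points are LUC and red points Arid3a-FLAG. Rhob and Id1 lead at 35.7 and 34.4 RPKM with LUC, and Tgfbr3 is last at 0.126 RPKM.

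Ratios per length within pairs of members were formed after the values were seen and are a description. The Smad3 to Smad2 ratio was 1.82, 1.35 and 1.82 with LUC and 2.0, 2.42 and 1.92 with Arid3a-FLAG, with no overlap. In the BMP branch, the Smad5 to Smad1 ratio was 5.18, 4.56 and 5.01 with LUC and 7.98, 6.48 and 5.92 with Arid3a-FLAG, again with no overlap. The Tgfbr2 to Tgfbr1 ratio was 1.88, 1.48 and 1.79 with LUC and 1.51, 1.19 and 1.26 with Arid3a-FLAG, and 1 library of each group overlapped. For the inhibitory pair, the Smad7 to Smad6 ratio was 7.22, 10.5 and 7.69 with LUC and 6.03, 5.12 and 5.52 with Arid3a-FLAG. All its LUC libraries were above all its Arid3a-FLAG libraries, on the low counts of Smad6 given above.

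Of 128 other genes of the pathway on a second list, 87 were tested, 7 rose (8.05%), 3 fell (3.45%) and 77 did not pass, beside 3.43% and 3.87% of all tested genes. The median log2 fold change of these tested genes was 0.09. Their list, too, was chosen with earlier results of these data known, and it was not tested as a list. Of 11 tested genes listed under storage and activation of the TGF-beta ligand, 3 rose (27.3%) and 1 fell (9.09%). Thbs1, thrombospondin-1, which activates latent TGF-beta, had 32.7, 32.9 and 75.0 CPM in the LUC libraries and 254, 295 and 295 CPM in the Arid3a-FLAG ones (log2 fold change 2.58, SE 0.28, adjusted p = 0.000672). Ltbp1, which anchors latent TGF-beta in the matrix, had 32.1, 31.8 and 36.4 CPM in the LUC libraries and 95.4, 105 and 80.4 CPM in the Arid3a-FLAG ones (1.48, SE 0.12, adjusted p = 0.000125). For both genes every Arid3a-FLAG library was above every LUC library. The third that rose was Ltbp2, named after its values were seen. Ltbp2 was low, with 2.37, 1.44 and 2.59 CPM in the LUC libraries and 5.33, 6.785 and 5.20 CPM in the Arid3a-FLAG ones. Its relative Ltbp4 fell, from 16.4, 13.5 and 18.4 CPM to 6.39, 6.96 and 9.28 CPM (-1.10, SE 0.18, adjusted p = 0.00654).

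Among 6 tested ligand genes 1 passed, as lower (16.7%, against 3.87% of all tested genes). It was Tgfb3, which fell from 4.10, 2.74 and 3.29 CPM to 0.620, 1.22 and 1.82 CPM (-1.47, SE 0.35, adjusted p = 0.0322). Of the other receptors and co-receptors 1 was tested, and it fell: Neo1, which encodes neogenin, a co-receptor in BMP signalling, went from 3.29, 2.55 and 5.50 CPM to 0.930, 0.812 and 1.57 CPM (-1.78, SE 0.37, adjusted p = 0.0183). The calls of Tgfb3 and Neo1 each held in 2 of 6 reduced comparisons, those without LUC library 2 or Arid3a-FLAG library 3. Zeb2, a SMAD-binding repressor, passed with a rise of 0.52 (SE 0.09, adjusted p = 0.00913). It was the 1 of 16 tested SMAD partners that did (6.25%, against 3.43% of all tested genes as higher). It lost the call without Arid3a-FLAG library 1 or 2 (adjusted p up to 0.0654). Of 21 tested ubiquitin, phosphatase and adaptor regulators 1 passed, as higher (4.76%, against 3.43% of all tested genes). Usp9x, a deubiquitinase that acts on Smad4, rose by 0.56 (SE 0.11, adjusted p = 0.0137). Its call was lost without LUC library 1 or Arid3a-FLAG library 1 (up to 0.0875).

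Of 18 tested other reported targets 2 rose (11.1%, against 3.43% of all tested genes). Tsc22d1, first described as a transcript induced by TGF-beta, had 36.5, 41.4 and 45.8 CPM in the LUC libraries and 90.5, 88.4 and 87.0 CPM in the Arid3a-FLAG ones (1.10, SE 0.10, adjusted p = 0.000334). Atoh8, a reported BMP target in other tissues, had 51.0, 48.3 and 63.0 CPM in the LUC libraries and 105, 98.7 and 97.9 CPM in the Arid3a-FLAG ones (0.89, SE 0.11, adjusted p = 0.00130). These 2 genes, Thbs1, Ltbp1 and Ltbp4 passed in all 6 reduced comparisons. None of 11 tested SMAD-independent kinases passed in edgeR, DESeq2 or limma-voom, 4 (36.4%) had an unadjusted p under 0.05 in edgeR, against 25.6% of all tested genes, and the smallest p was that of Pak1 (-0.28, adjusted p = 0.103). None of 3 tested extracellular antagonists passed by any of these tools, 0 had an unadjusted p under 0.05 in edgeR, and Bmper, with the smallest p among them, was below 1 CPM in every library (-1.28, SE 0.84, adjusted p = 0.367).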

How the data were processed

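RNA was measured by sequencing in 6 libraries of mouse fetal liver cells, 3 with Arid3a-FLAG and 3 with LUC. The authors deposited read counts per gene, 1 whole number per gene and library and not normalized. Per the submitters' processing notes, fastp, HISAT2 2.0.5, featureCounts and the build mm10 were used. Settings, annotation release and strandedness are not given in the sources. Column names equal the sample descriptions. GENCODE M21 on GRCm38 (mm10) supplied symbols, positions and exon lengths by identifier. Of 53801 genes, 95 had no match, and they took 0.0107% to 0.0170% of a library's counts. The table held 1 further entry, for the tagged construct, which was kept out of totals and tests.

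The test was edgeR 4.0.16 in R 4.3.3 (filterByExpr, TMM factors, quasi-likelihood F test with the group as the only term, two-sided). Adjusted p-values are Benjamini-Hochberg values over 13631 genes, called under 0.05, and come from edgeR where no other tool is named. The SE of a log2 fold change is its size divided by the square root of F, and intervals are at the 95% level. CPM used TMM-scaled totals, and RPKM used the length of all annotated exons of a gene. The script was tested on simulated data. As alternatives, factors were RLE or upper quartile, the filter was dropped or raised to 5 CPM in 3 libraries, the tool was DESeq2 1.42.0 or voom in limma 3.58.1, the replicate number was a block, and each library was left out. Members and lists were chosen with earlier results of these data known. The rule for naming genes covered every member. From each class of the second pathway list it took up to 2 genes past the threshold per direction by smallest p, or else the gene with the smallest p. Hjv, on that list, was not matched and has no value. Motif letters were chosen after the counts were seen, and a further TATA-like set was searched and is not reported because its letters were ill defined. Promoter letters are from RefSeq, and the starts of the 3 printed promoters equal those in GENCODE.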

Additional observations from a re-analysis of the deposited data

How the results depend on the processing

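RLE and upper quartile factors and limma-voom left the counts of calls within 1.5 times. With no filter on low counts 869 genes were higher and 1076 lower, with 3 members lower and 15 and 7 genes of the second pathway list higher and lower. DESeq2 called 771 genes higher, 2 members lower, and 12 and 5 of the second list. At 5 CPM in 3 libraries 1 gene of the second list was lower. With a replicate block 2 members (Tgfbr2 added, adjusted p = 0.0440) and 6 genes of the second list were lower, and Rhob did not pass (0.0503). Replicate numbers did not pair the libraries: same-numbered ones correlated at -0.103, -0.115 and 0.125 in their deviations from the group means, and not every library correlated best with its own number. With 1 library left out, 115 to 1191 genes were higher and 118 to 1095 lower, 0 to 5 members in either direction, and 5 to 16 and 1 to 7 of the second list. Of 424 values of the 33 members over 13 alternatives, 375 kept their direction and side of the threshold, 16 lost the call, 10 gained one and 23 changed sign, all in members that did not pass. Tgfbr1 was at -0.014 (upper quartile), -0.010 (limma-voom) and -0.0070 (replicate block), and Tgfbr3 at -0.011, -0.072 and -0.057. The endogenous Arid3a gene was at 0.0035 (no filter), 0.016 (limma-voom) and 0.019 (replicate block). With 1 library left out the log2 fold change ran from -0.14 to 0.13 for Tgfbr1, -0.17 to 0.23 for Acvr2a, -0.085 to 0.17 for Acvr2b, -0.47 to 0.22 for Tgfbr3, -0.14 to 0.10 for Smurf1, -0.17 to 0.058 for Bambi, -0.41 to 0.034 for Id2, -0.095 to 0.067 for Bhlhe40, -0.26 to 0.072 for Nedd9 and -0.19 to 0.17 for Arid3a. The cause of these shifts was not tested. Members under about 60 counts in a library (Acvr2a, Acvr2b, Tgfbr3, Smad6) have the widest intervals.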
